A study of Mus musculus with 8 samples.

Results

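Lysosomal genes were examined in mouse bone marrow-derived macrophages with and without the transcription factor Nrf2, untreated or exposed to dimethyl itaconate (DI), a membrane-permeable, electrophilic ester of itaconate. The set was a list of 47 named genes among the 22165 genes of the count table. It comprised 10 cathepsin-class genes, 13 other hydrolases and their activators, 10 membrane and transfer proteins and 14 subunits of the vacuolar ATPase (V-ATPase). The cathepsin class holds the cathepsins and legumain, an asparaginyl endopeptidase that is counted with them throughout. The list names genes by function, and all 47 passed the filter on low counts that left 11079 genes for testing.

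Lysosomes are acidic organelles in which hydrolases degrade proteins, lipids and glycans delivered by endocytosis, phagocytosis and autophagy. The V-ATPase pumps protons into the lumen and so provides the low pH at which cathepsins and most other lysosomal hydrolases work. Membrane proteins shield the limiting membrane and export cholesterol and other products. Transcription factors of the MiT/TFE family bind E-boxes near the start sites of many of these genes. NRF2, encoded by Nfe2l2, activates genes with antioxidant response elements and is released from its inhibitor KEAP1 by electrophiles. Macrophages are rich in lysosomes.

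The 4 groups, of 2 libraries each, were Nrf2 knockout (KO) cells with DI, untreated KO cells, wild-type cells with DI and untreated wild-type cells. All were bone marrow macrophages of the C57BL/6 strain label, grown for 7 days with macrophage colony-stimulating factor, and DI was given at 250 µM for 12 h. The Nrf2-/- mice were bought from a commercial breeder and the deletion is labelled as a genotype of the animals, not of the macrophage lineage alone; the sources used here do not give the origin of the wild-type mice. Whether replicate libraries stem from different animals or dishes is not stated in the labels, and the p-values therefore cover library-to-library spread alone. Sequencing read poly(A) RNA near transcript 3′ ends.

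Total counts ranged from 5554288 to 15680671 per library. Levels are counts per 1000000 counts of the scaled library size (CPM), and are compared between groups only, since 3′ counts are not scaled per gene length. A gene was called where the Benjamini-Hochberg adjusted p of edgeR's quasi-likelihood test over all tested genes was under 0.05. Log2 fold changes are given with the standard error (SE) of that fit. Nfe2l2 had 634 and 869 counts in KO cells with DI, 230 and 488 in untreated KO cells, 1901 and 4469 in wild-type cells with DI, and 2636 and 7022 in untreated wild-type cells. The log2 fold change of KO over wild-type cells was -2.20 ± 0.33 with DI (edgeR adjusted p = 0.000784) and -2.87 ± 0.34 without (edgeR adjusted p = 0.0019). The macrophage markers Adgre1, Csf1r and 8 others were all detected. Neutrophil markers summed to 278 to 442 CPM and dendritic cell markers to 6.4 to 13.4 CPM. Lymphocyte markers summed to 5.12 to 10.7 CPM, of which Cd4, also expressed by some macrophages, had 3.77 to 8.90 CPM and the other 9 together at most 2.52 CPM. Markers of mast cells and erythroid cells each summed to at most 1.30 CPM. Of all these markers, Klrb1c, Ncr1, Mcpt4, Cma1, Tpsb2, Hbb-bs and Hbb-bt were among those at 0 in all 8 libraries.

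With DI, the lysosomal genes took up a smaller part of the transcripts in KO than in wild-type macrophages. The 47 genes held 3.08% and 3.10% of all counts in KO cells with DI, 3.60% and 3.54% in untreated KO cells, 4.86% and 4.42% in wild-type cells with DI, and 4.25% and 3.72% in untreated wild-type cells. The 4 groups did not overlap. These are bulk libraries, in which fewer cells of a type and less RNA per cell cannot be told apart. The 13 transcripts of the mitochondrial genome also held a smaller share of counts in KO than in wild-type cells with DI. They held 1.02% and 1.54% in KO cells with DI, and 1.59% and 2.10% in wild-type cells with DI. Without DI the order was reversed, at 1.42% and 1.49% in untreated KO cells and 1.30% and 1.37% in untreated wild-type cells. The first KO library with DI lay below all untreated libraries and the second above them. Of the 13, 11 lay below 0 for KO over wild type with DI (median -0.47), 5 were called lower and 0 higher, and 5 were called higher with DI in wild-type cells. Stromal cell markers, given beside Ctsk, were also lower in KO cells with DI. The part of these transcripts in the lysosomal share was not tested. The summed level of the hydrolases other than cathepsins was 3475 and 3897 CPM in KO cells with DI, 4663 and 4902 CPM in untreated KO cells, 11699 and 11157 CPM in wild-type cells with DI and 6310 and 6685 CPM in untreated wild-type cells. Psap and Lipa carried much of it: the other 11 genes summed to 1655 and 1829 CPM in KO cells with DI, 2038 and 2358 CPM in untreated KO cells, 2191 and 3091 CPM in wild-type cells with DI and 2084 and 2200 CPM in untreated wild-type cells. The membrane and transfer proteins summed to 7035 and 6172 CPM in KO cells with DI, 8289 and 7976 CPM in untreated KO cells, 11094 and 11615 CPM in wild-type cells with DI and 9141 and 9101 CPM in untreated wild-type cells. In both full classes the wild-type libraries with DI were the highest and the KO libraries with DI the lowest. Cathepsins summed to 17224 and 16536 CPM in KO cells with DI, 18689 and 17790 CPM in untreated KO cells, 23898 and 20706 CPM in wild-type cells with DI and 23202 and 18421 CPM in untreated wild-type cells. V-ATPase subunits summed to 2912 and 3641 CPM in KO cells with DI, 3323 and 3113 CPM in untreated KO cells, 4788 and 3398 CPM in wild-type cells with DI and 2996 and 3565 CPM in untreated wild-type cells. For cathepsins the KO libraries with DI lay below all others, while the groups of V-ATPase sums overlapped.

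**Figure D1:**
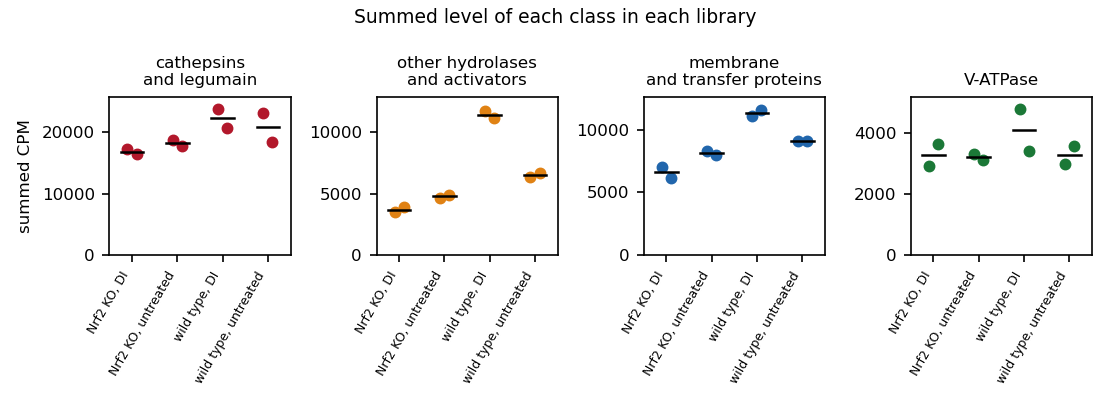
Summed level of each class in each library, in CPM (y axis), for the 4 groups (x axis). Points are libraries and black lines are group means. The 13 other hydrolases and activators sum to 11157 to 11699 CPM in wild-type cells with DI, against 6310 to 6685 CPM in untreated wild-type cells, and stay at or under 4902 CPM in the 4 KO libraries; without Psap and Lipa the other 11 sum to 1655 to 3091 CPM over all libraries.

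Comparing KO with wild-type macrophages under DI, which asks what the lysosomal genes of DI-treated cells look like without Nrf2, 3 of the 47 genes were higher and 20 were lower by edgeR. Over all tested genes 11.4% were called higher and 9.74% lower in this comparison. The median log2 fold change was -0.52 over the 47 genes and 0.01 over all genes, and 35 of the 47 lay below 0. Both KO libraries were below both wild-type libraries for 31 of the 47 genes and above them for 7, where 30.5% of all tested genes were below and 30.1% above. By class, 4 of 10 cathepsins, 5 of 13 other hydrolases, 6 of 10 membrane and transfer proteins and 5 of 14 V-ATPase subunits fell, with medians of -0.60, -0.43, -0.77 and -0.36. Ctsc, Atp6v0a1 and Atp6v0c were the 3 genes that were higher in KO cells. The count rested in part on single libraries: without the first KO library with DI, 4 genes were lower and 1 was higher, against 4.67% and 6.07% of all tested genes.

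**Figure D2:**
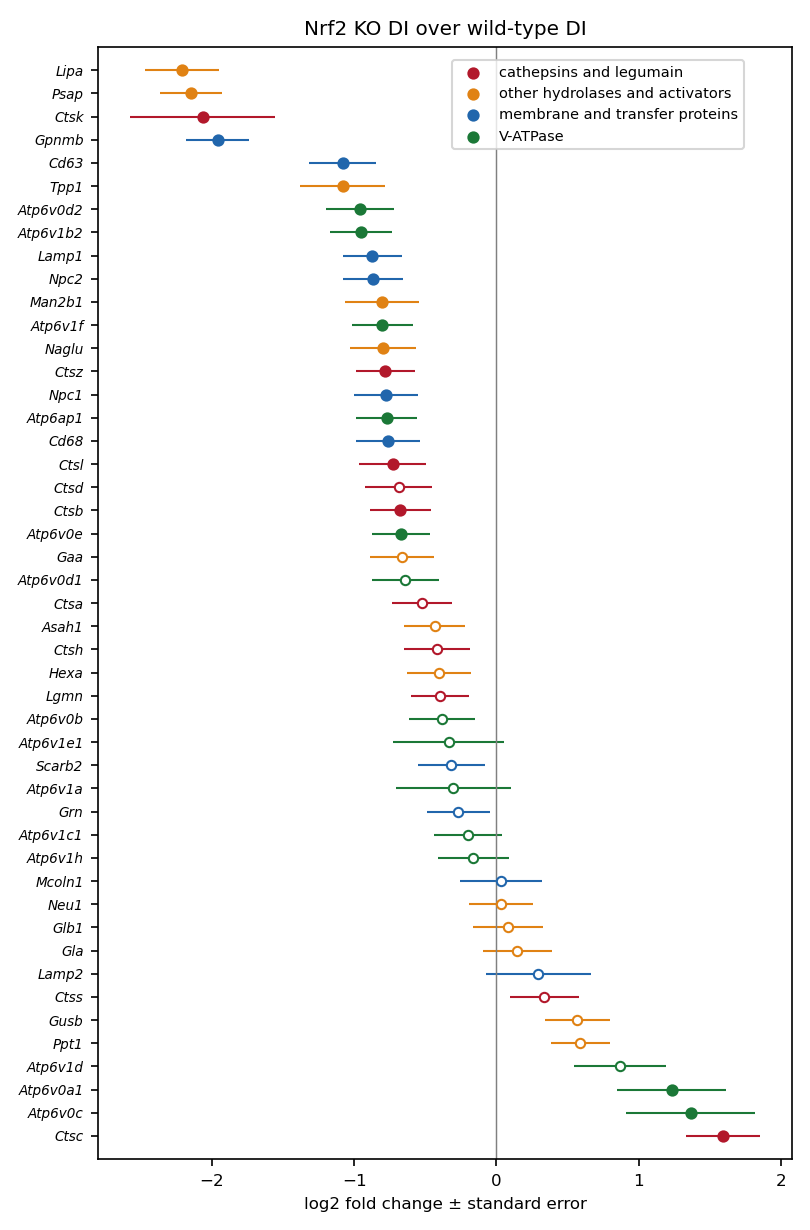
Log2 fold change of KO over wild-type macrophages, both with DI (x axis), for each of the 47 genes (y axis), coloured by class. Points are estimates, bars are standard errors and filled points are genes called by edgeR. Lipa, Psap, Ctsk and Gpnmb lie lowest, at -2.21, -2.15, -2.06 and -1.96, and Ctsc highest, at 1.59.

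Between untreated KO and untreated wild-type cells edgeR called 0 of the 47 genes, where it called 0.0812% of all tested genes higher and 0.524% lower. At an unadjusted edgeR p under 0.05, 0 members were higher and 6 were lower, and the share of all tested genes at that threshold was not computed. DESeq2 called 2 members lower, Lipa (DESeq2 adjusted p = 0.0141) and Gpnmb (DESeq2 adjusted p = 0.0345), and 0 higher. Of all tested genes it called 0.325% higher and 1.40% lower. The members' median log2 fold change was -0.07, beside -0.01 over all genes. The 5 comparisons share libraries, so their values stand side by side and do not count as independent.

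With DI, the members' estimates lay mostly below 0 in KO cells and mostly above 0 in wild-type cells. In KO cells 1 of 47 genes rose and 2 fell with DI, where 4.49% of all tested genes rose and 4.0% fell; the median was -0.30 for the members and 0.00 for all genes, and 33 of 47 members lay below 0. In wild-type cells DI was followed by 6 rises and 2 decreases among the 47 genes, where 6.51% of all tested genes rose and 8.68% fell; the median was 0.23 for the members and -0.02 for all genes. The estimates of 22 members (46.8%) were above 0 in wild-type and below 0 in KO cells, as were 23.2% of those of all tested genes. The difference between the DI effects, tested as the interaction of DI and genotype and given as KO minus wild type, was called for 3 members, 1 above and 2 below 0. Of all tested genes 4.96% were called above and 2.59% below 0. The median interaction was -0.44 over the members and 0.02 over all genes. After removal of the trend with A-rich sequence described at the end, the members' median was -0.23 for the interaction and 0.11 for DI in wild-type cells, beside 0.01 and 0.01 for all genes. These counts also rested on single libraries: without the second untreated wild-type library 1 member rose and 3 fell with DI in wild-type cells, where 2.65% of all tested genes rose and 4.62% fell. In KO cells the members' calls with DI were all lost without the first KO library with DI or either untreated KO library. Those of the interaction were all lost without the second untreated KO library. These fits leave 1 library in a group, and they also called a smaller share of all tested genes. The members' median with DI in KO cells was -0.23 without the first KO library with DI. It was -0.34 and -0.27 without the first and the second untreated KO library. Without the latter the median interaction was -0.38.

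**Figure D3:**
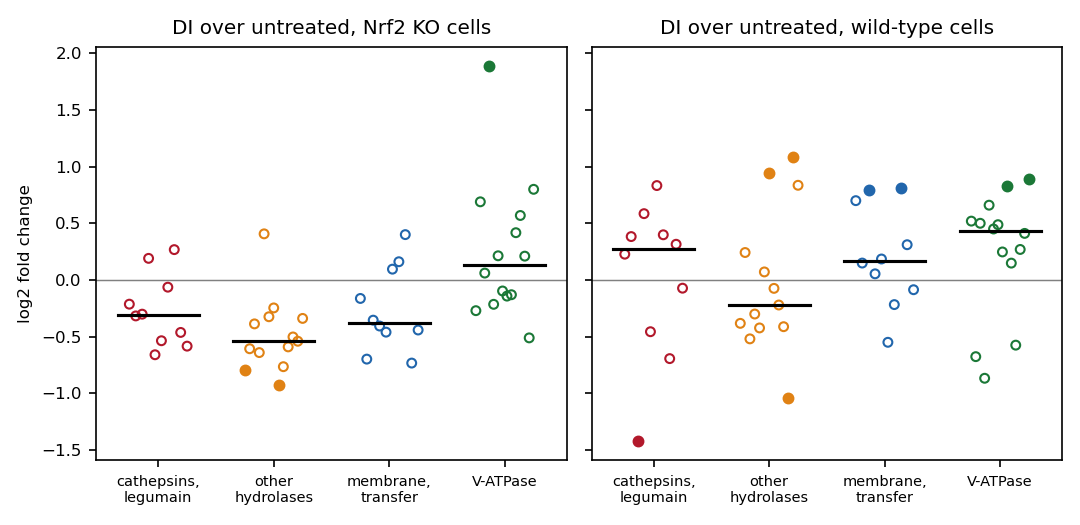
Log2 fold change of DI over untreated (y axis) for each of the 47 genes, by class (x axis), in KO cells (left) and wild-type cells (right). Points are genes, filled where edgeR called them, and black lines are class medians. The medians of cathepsins, other hydrolases, membrane proteins and V-ATPase are -0.31, -0.54, -0.38 and 0.14 in KO cells and 0.27, -0.22, 0.17 and 0.43 in wild-type cells.

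**Figure D4:**
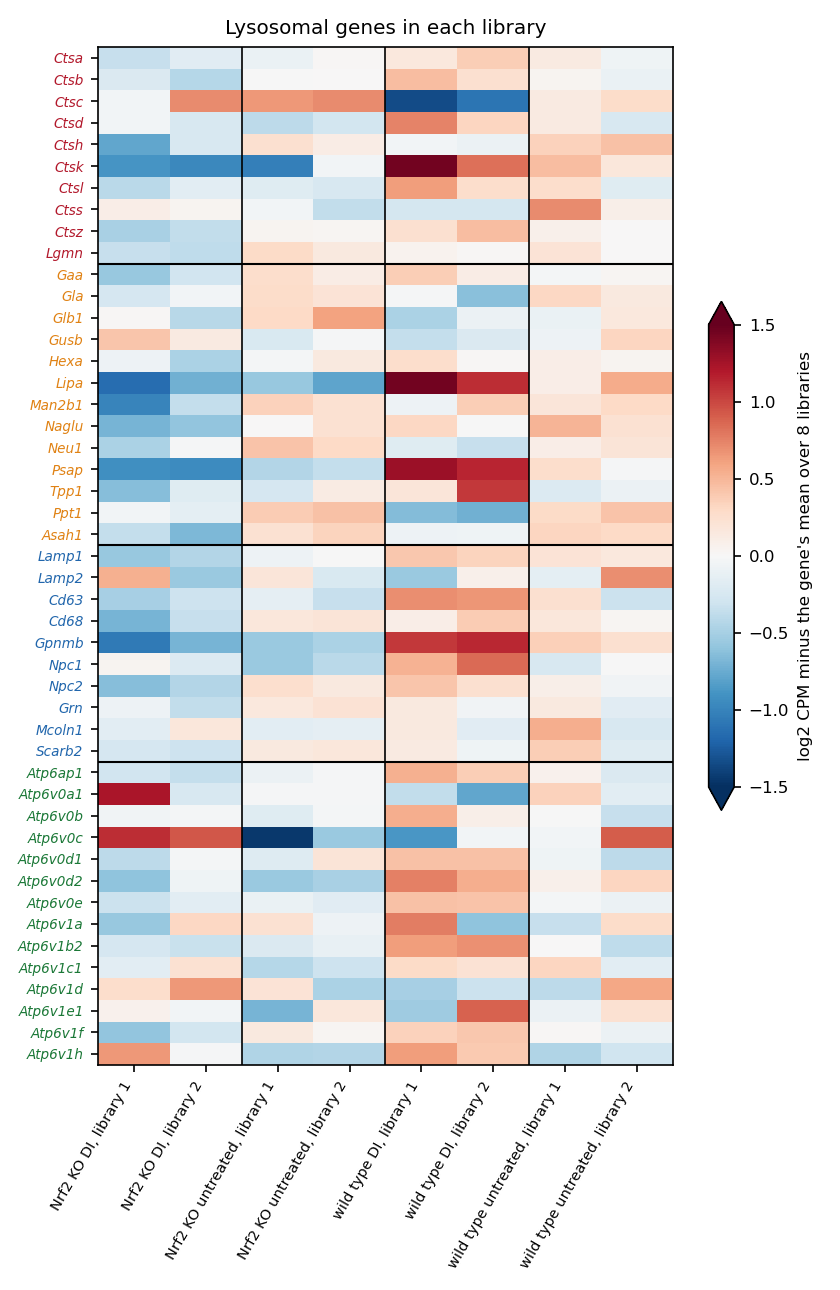
Level of each of the 47 genes (rows, grouped by class) in each of the 8 libraries (columns), as log2 CPM minus the mean of the gene over all libraries. Red is above and blue below that mean, and the colour scale ends at 1.5 in either direction. Lipa, Psap and Gpnmb are highest in both wild-type libraries with DI, and Psap and Gpnmb are lowest in both KO libraries with DI.

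Among the hydrolases and their activators, Psap and Lipa differed most. Psap encodes prosaposin, the precursor of the saposins that present sphingolipids to lysosomal hydrolases. It lies at chr10:60277627-60302597 on the plus strand (GRCm38). Its promoter is shown because it holds a match to the core of the antioxidant response element, TGACNNNGC, in capitals.
Psap, chr10:60277378-60277627, plus strand: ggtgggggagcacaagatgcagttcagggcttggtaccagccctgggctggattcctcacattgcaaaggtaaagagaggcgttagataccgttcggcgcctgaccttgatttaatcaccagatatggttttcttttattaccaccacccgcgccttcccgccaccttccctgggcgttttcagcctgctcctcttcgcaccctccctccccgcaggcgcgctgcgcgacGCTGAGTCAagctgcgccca
This stretch from RefSeq (GRCm38.p6) ends at the base before the start site, and the capitals also contain TGANTCA, the AP-1 motif, with which the match overlaps. Psap had 1043 and 1027 CPM in KO cells with DI, 1461 and 1549 CPM in untreated KO cells, 4807 and 4363 CPM in wild-type cells with DI and 2382 and 1948 CPM in untreated wild-type cells. No group overlapped another, and the wild-type libraries with DI were the highest. With DI it was 4.43-fold lower in KO than in wild-type cells, a log2 fold change of -2.15 ± 0.22 (edgeR adjusted p = 4.52e-05). DI raised it in wild-type cells, by 1.08 ± 0.21 (edgeR adjusted p = 0.00531), while its change in KO cells was -0.54 ± 0.21 (edgeR adjusted p = 0.129). The DI effects differed by -1.62 ± 0.30 (edgeR adjusted p = 0.00832). The rise in wild-type cells gave an adjusted p of 0.0577 in edgeR without the second untreated wild-type library, and the interaction gave 0.0556 without the second untreated KO library.

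Lipa encodes lysosomal acid lipase, which frees cholesterol and fatty acids from the lipids of lipoproteins taken up by the cell (chr19:34492318-34527474, minus strand). It had 777 and 1042 CPM in KO cells with DI, 1163 and 995 CPM in untreated KO cells, 4701 and 3703 CPM in wild-type cells with DI and 1845 and 2537 CPM in untreated wild-type cells. Every KO library lay below every wild-type library, and the wild-type libraries with DI were the highest. With DI it was 4.62-fold lower in KO than in wild-type cells (log2 -2.21 ± 0.26, edgeR adjusted p = 0.000142), and this call remained in each fit that left out 1 library. It rose with DI in wild-type cells, by 0.94 ± 0.25 (edgeR adjusted p = 0.0257). This rise was no longer called without the first wild-type library with DI (edgeR adjusted p = 0.0915) or the first untreated wild-type library (edgeR adjusted p = 0.157). The interaction was -1.19 ± 0.35 (edgeR adjusted p = 0.0602). DESeq2 called this interaction (DESeq2 adjusted p = 0.0181), as did edgeR with the A-rich trend removed (edgeR adjusted p = 0.0224). In untreated cells the log2 fold change of KO over wild type was -1.02 ± 0.25 (edgeR adjusted p = 0.106).

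Ppt1 and Asah1 fell with DI, each called in 1 genotype. Ppt1, the thioesterase that removes palmitate from proteins, had 91.9 and 85.2 CPM in KO cells with DI, 123 and 128 CPM in untreated KO cells, 60.3 and 57.5 CPM in wild-type cells with DI and 116 and 127 CPM in untreated wild-type cells. The wild-type libraries with DI were the lowest. It fell by 1.05 ± 0.21 on the log2 scale with DI in wild-type cells (edgeR adjusted p = 0.00568), a call kept in each fit that left out 1 library. In KO cells its change was -0.50 ± 0.21 (edgeR adjusted p = 0.146), and edgeR called neither the interaction nor the genotype difference with DI. DESeq2 called Ppt1 higher in KO than in wild-type cells with DI (DESeq2 adjusted p = 0.045), as did edgeR with library size alone (edgeR adjusted p = 0.0332). Asah1, the acid ceramidase, had 74.3 and 59.9 CPM in KO cells with DI, 112 and 120 CPM in untreated KO cells, 90.3 and 91 CPM in wild-type cells with DI and 119 and 117 CPM in untreated wild-type cells. DI libraries lay below untreated ones in both genotypes. It fell by 0.79 ± 0.21 in KO cells (edgeR adjusted p = 0.0412). This call was lost in 6 of the 8 fits without 1 library, namely without either KO library with DI, either untreated KO library or either untreated wild-type library, with edgeR adjusted p of up to 0.218.

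The remaining called hydrolases were lower in KO than in wild-type cells under DI by smaller amounts. Tpp1, a tripeptidyl peptidase, had 658 and 904 CPM in KO cells with DI, 859 and 1116 CPM in untreated KO cells, 1161 and 2143 CPM in wild-type cells with DI and 892 and 960 CPM in untreated wild-type cells. Both wild-type libraries with DI were the highest, but the second was well above the first. Its log2 fold change of KO over wild type with DI was -1.08 ± 0.30 (edgeR adjusted p = 0.0229), lost without the first KO or the second wild-type library with DI (edgeR adjusted p = 0.152 and 0.153). Man2b1, the lysosomal alpha-mannosidase, had 37.9 and 59 CPM in KO cells with DI, 95.4 and 88.5 CPM in untreated KO cells, 71.2 and 97.6 CPM in wild-type cells with DI and 85.5 and 92.3 CPM in untreated wild-type cells. The KO libraries with DI were the lowest of all. It fell with DI in KO cells, by 0.92 ± 0.26 (edgeR adjusted p = 0.0473), and was lower in KO than in wild-type cells with DI, at -0.80 ± 0.26 (edgeR adjusted p = 0.045). Leaving out the first KO library with DI ended both calls (edgeR adjusted p = 0.26 and 0.256), as did leaving out any 1 of the 4 untreated libraries, and leaving out the second wild-type library with DI ended the other call (edgeR adjusted p = 0.209). Naglu, which removes terminal N-acetylglucosamine from heparan sulfate, had 14.7 and 15.9 CPM in KO cells with DI, 24 and 28 CPM in untreated KO cells, 29.5 and 23.9 CPM in wild-type cells with DI and 34.1 and 28 CPM in untreated wild-type cells. The KO libraries with DI were again the lowest. KO over wild type with DI gave a log2 fold change of -0.80 ± 0.23 (edgeR adjusted p = 0.0311), lost without either KO library with DI, the first untreated KO library or the first wild-type library with DI, the highest edgeR adjusted p being 0.132 without the last of these.

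The glycosidases Gaa, Gla, Glb1, Gusb, Hexa and Neu1 were called in no comparison. Their log2 fold changes of KO over wild type with DI ran from -0.66 to 0.57, with a lowest edgeR adjusted p of 0.0556. With the A-rich trend removed, Gusb was called higher at 0.78 (edgeR adjusted p = 0.0411). In KO cells 12 of the 13 genes of the class had estimates below 0 with DI, 2 of which passed the test, and the class median was -0.54. In wild-type cells 8 of the 13 were below 0, and the median was -0.22 although the summed level was higher with DI, with Psap and Lipa as its largest terms there.

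**Figure D5:**
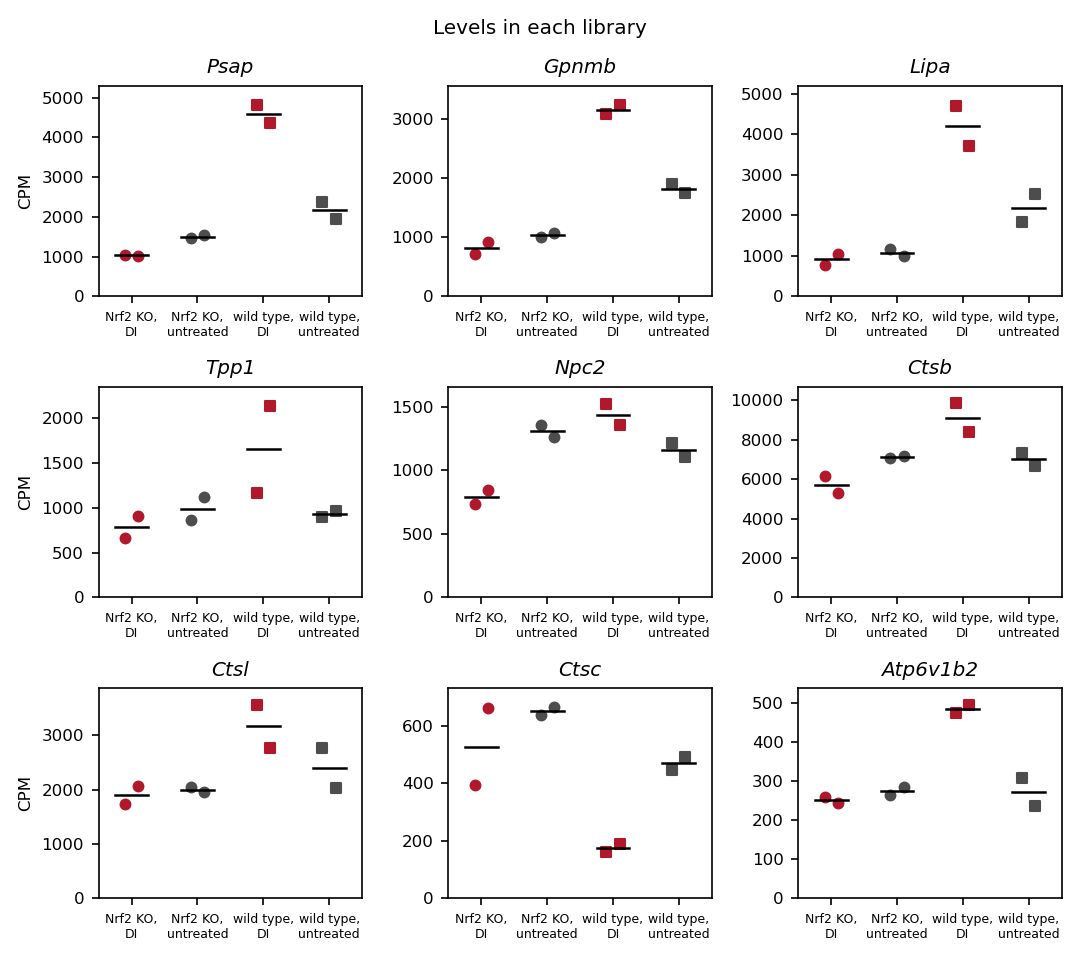
Levels in CPM (y axis) of 9 lysosomal genes in each library, by group (x axis). Points are libraries, circles for KO and squares for wild type, red with DI and grey untreated, and black lines are means. Psap, Gpnmb, Lipa and Atp6v1b2 are highest in wild-type cells with DI, where Psap has 4807 and 4363 CPM, and Ctsc is lowest there, with 160 and 190 CPM.

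Of the cathepsins, the main lysosomal proteases, 4 were lower and 1 was higher in KO than in wild-type cells with DI. Ctsc encodes a dipeptidyl peptidase that activates serine proteases of immune cell granules (chr7:88278085-88310888, plus strand). It had 395 and 662 CPM in KO cells with DI, 637 and 665 CPM in untreated KO cells, 160 and 190 CPM in wild-type cells with DI and 447 and 492 CPM in untreated wild-type cells. Wild-type cells with DI were the lowest, and the first KO library with DI was below the other KO libraries. Ctsc fell with DI in wild-type cells, by 1.42 ± 0.26 (edgeR adjusted p = 0.00347). It was 3.02-fold higher in KO than in wild-type cells with DI (log2 1.59 ± 0.26, edgeR adjusted p = 0.00147). Both calls remained in every fit that left out 1 library. The interaction was 1.12 ± 0.36 (edgeR adjusted p = 0.0777), and DESeq2 called it (DESeq2 adjusted p = 0.0399).

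Ctsb, Ctsl and Ctsz, broadly expressed cysteine cathepsins, were lower in KO than in wild-type cells with DI. Ctsb had 6140 and 5290 CPM in KO cells with DI, 7085 and 7157 CPM in untreated KO cells, 9844 and 8402 CPM in wild-type cells with DI and 7349 and 6647 CPM in untreated wild-type cells. The 2 KO libraries with DI were the lowest. Under DI, KO cells differed from wild-type cells by a log2 fold change of -0.67 ± 0.21 (edgeR adjusted p = 0.0409), lost in 7 of 8 fits without 1 library, all but that without the second wild-type library with DI, with edgeR adjusted p of up to 0.159 without the second KO library with DI. Ctsl had 1743 and 2072 CPM in KO cells with DI, 2039 and 1948 CPM in untreated KO cells, 3557 and 2768 CPM in wild-type cells with DI and 2768 and 2031 CPM in untreated wild-type cells. Both KO libraries with DI were below both wild-type libraries with DI, and the untreated groups overlapped. The log2 fold change of KO over wild-type cells with DI was -0.73 ± 0.24 (edgeR adjusted p = 0.0461), lost without any 1 of the 4 KO libraries or the first wild-type library with DI, with edgeR adjusted p of up to 0.21 without the first KO library with DI. Ctsz had 232 and 251 CPM in KO cells with DI, 334 and 332 CPM in untreated KO cells, 385 and 446 CPM in wild-type cells with DI and 341 and 327 CPM in untreated wild-type cells. The untreated groups overlapped, and the DI groups lay below and above them. Between DI-treated KO and wild-type cells the log2 fold change was -0.78 ± 0.21 (edgeR adjusted p = 0.0198), lost without either KO library with DI or the second wild-type library with DI, with edgeR adjusted p of up to 0.1.

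Ctsk encodes cathepsin K, the collagen-degrading protease of osteoclasts. It was near the lower end of detection, with 0.961 and 0.912 CPM in KO cells with DI, 0.875 and 1.74 CPM in untreated KO cells, 4.87 and 3.17 CPM in wild-type cells with DI and 2.45 and 2.01 CPM in untreated wild-type cells. These levels stand for 5 to 34 counts per library. Every KO library was below every wild-type library. With DI its log2 fold change of KO over wild type was -2.06 ± 0.51 (edgeR adjusted p = 0.0144), lost without either KO library with DI or the first wild-type library with DI, with edgeR adjusted p of up to 0.0774. Stromal markers moved in the same direction: the 8 listed genes summed to 43.7 and 45.6 CPM in KO cells with DI, 49.5 and 47.8 CPM in untreated KO cells, 115 and 105 CPM in wild-type cells with DI, and 89.9 and 132 CPM in untreated wild-type cells, with Lum at 0 in all libraries. Of the 6 tested, 4 were lower in KO than in wild-type cells with DI, among them the collagens Col3a1 and Col1a1. The 10 osteoclast markers summed to 418 and 653 CPM in KO cells with DI, 848 and 790 CPM in untreated KO cells, 783 and 459 CPM in wild-type cells with DI and 826 and 676 CPM in untreated wild-type cells. The calcitonin receptor gene Calcr was at 0 in all libraries and Oscar in 6 of 8. The part of these markers in the Ctsk result was not tested.

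Ctss, which processes the invariant chain of MHC class II, had 4762 and 4562 CPM in KO cells with DI, 4321 and 3425 CPM in untreated KO cells, 3688 and 3696 CPM in wild-type cells with DI and 7221 and 4722 CPM in untreated wild-type cells. By edgeR it was called in no comparison: its change with DI in wild-type cells was -0.69 ± 0.25 (edgeR adjusted p = 0.0748). That change was called by DESeq2 (DESeq2 adjusted p = 0.0493) and by edgeR with library size alone (edgeR adjusted p = 0.045). The first untreated wild-type library stood far above the other. Ctsa, Ctsd, Ctsh and Lgmn, a carboxypeptidase, an aspartic protease, an aminopeptidase and an asparaginyl endopeptidase, were not called by edgeR either, while DESeq2 called Ctsd lower in KO than in wild-type cells with DI (DESeq2 adjusted p = 0.0319). With Ctss, their log2 fold changes of KO over wild type with DI ran from -0.69 to 0.34, with a lowest edgeR adjusted p of 0.0552.

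Of the membrane and transfer proteins, Gpnmb stood apart from the rest. It encodes a type I transmembrane glycoprotein of late endosomes and lysosomes that is abundant in lipid-laden macrophages (chr6:49036546-49070929, plus strand). The bases around its start site are shown because they hold TGANTCA, the AP-1 motif, in capitals.
Gpnmb, chr6:49036515-49036544, plus strand: ccaggggcaagTGACTCAtgagcacgagtt
Gpnmb had 708 and 913 CPM in KO cells with DI, 1007 and 1066 CPM in untreated KO cells, 3071 and 3226 CPM in wild-type cells with DI and 1893 and 1745 CPM in untreated wild-type cells. Every KO library was below every wild-type library, and within wild type the DI libraries were above the untreated ones. With DI it was 3.88-fold lower in KO than in wild-type cells (log2 -1.96 ± 0.22, edgeR adjusted p = 0.000111), in every fit that left out 1 library. DI raised it in wild-type cells, by 0.79 ± 0.22 (edgeR adjusted p = 0.0278), and the DI effects differed by -1.15 ± 0.30 (edgeR adjusted p = 0.0403). The rise in wild-type cells was lost without any 1 of the 4 untreated libraries or the second wild-type library with DI, with edgeR adjusted p of up to 0.15. The interaction was lost without any 1 library other than the second KO and the second wild-type library with DI, with edgeR adjusted p of up to 0.157. In untreated cells the log2 fold change of KO over wild type was -0.81 ± 0.22 (edgeR adjusted p = 0.138).

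Npc1 and Npc2 act in sequence to move cholesterol out of the lysosome. Npc1 had 695 and 586 CPM in KO cells with DI, 459 and 512 CPM in untreated KO cells, 972 and 1224 CPM in wild-type cells with DI and 574 and 677 CPM in untreated wild-type cells. The wild-type libraries with DI were the highest. It rose with DI in wild-type cells, by 0.81 ± 0.22 (edgeR adjusted p = 0.0299), and was lower in KO than in wild-type cells with DI, at -0.78 ± 0.22 (edgeR adjusted p = 0.0294). The rise was lost without any 1 of the 4 untreated libraries or the second wild-type library with DI, with edgeR adjusted p of up to 0.148. The genotype difference was lost without any 1 of the 4 KO libraries or the second wild-type library with DI, with edgeR adjusted p of up to 0.129. Npc2, the soluble carrier, had 731 and 842 CPM in KO cells with DI, 1355 and 1259 CPM in untreated KO cells, 1521 and 1352 CPM in wild-type cells with DI and 1214 and 1102 CPM in untreated wild-type cells. Here the KO libraries with DI were the lowest, and the other 3 groups lay between 1102 and 1521 CPM. Its log2 fold change of KO over wild type with DI was -0.87 ± 0.21 (edgeR adjusted p = 0.0129), lost without the first KO library with DI (edgeR adjusted p = 0.0863). Its change with DI in KO cells was -0.73 ± 0.21 (edgeR adjusted p = 0.0504), and its interaction was -1.04 ± 0.30 (edgeR adjusted p = 0.0517). DESeq2 called both (DESeq2 adjusted p = 0.0134 and 0.0115).

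Lamp1, Cd63 and Cd68 belong to the heavily glycosylated or tetraspanin proteins of the limiting membrane. Lamp1 had 323 and 355 CPM in KO cells with DI, 454 and 479 CPM in untreated KO cells, 635 and 605 CPM in wild-type cells with DI and 555 and 537 CPM in untreated wild-type cells. The order of the groups was complete, with no overlap. KO over wild type with DI gave a log2 fold change of -0.87 ± 0.20 (edgeR adjusted p = 0.0111), lost without the first KO library with DI (edgeR adjusted p = 0.0698). Cd63, a tetraspanin, had 512 and 581 CPM in KO cells with DI, 657 and 566 CPM in untreated KO cells, 1168 and 1143 CPM in wild-type cells with DI and 849 and 575 CPM in untreated wild-type cells. Both wild-type libraries with DI were the highest. Under DI, KO cells differed from wild-type cells by a log2 fold change of -1.08 ± 0.24 (edgeR adjusted p = 0.0082), lost without the first KO library with DI (edgeR adjusted p = 0.0619). Cd68, a macrophage glycoprotein of the Lamp family, had 408 and 521 CPM in KO cells with DI, 749 and 760 CPM in untreated KO cells, 711 and 865 CPM in wild-type cells with DI and 745 and 677 CPM in untreated wild-type cells. The KO libraries with DI were the lowest and the other groups overlapped. The log2 fold change of KO over wild-type cells with DI was -0.76 ± 0.22 (edgeR adjusted p = 0.0303), lost without the first KO library with DI (edgeR adjusted p = 0.175), either untreated KO library or the second wild-type library with DI.

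Lamp2, Grn, Mcoln1 and Scarb2 were called in no comparison; they encode a membrane glycoprotein, progranulin, a cation channel and the sorting receptor of glucocerebrosidase. Their log2 fold changes of KO over wild type with DI ran from -0.32 to 0.29, with a lowest edgeR adjusted p of 0.361. The 10 macrophage markers, measured alongside, summed to 4625 and 4883 CPM in KO cells with DI, 7539 and 7685 CPM in untreated KO cells, 5293 and 4814 CPM in wild-type cells with DI and 7327 and 6657 CPM in untreated wild-type cells. They were lower with DI in both genotypes, with 5 of 10 called in KO and 4 of 10 in wild-type cells, and between the genotypes with DI, Cd14 was higher and Csf1r lower in KO cells. Their part in the changes of lysosomal genes with DI was not tested.

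The V-ATPase subunits moved in both directions. In 6 of the 14, the higher library of some group was over 1.5 times the lower, as it was in 3 of 10 cathepsins, 3 of 13 other hydrolases, 2 of 10 membrane proteins and 54.9% of all tested genes. The median log2 fold change of the class was -0.36 for KO over wild type with DI, and 0.14 and 0.43 for DI over untreated in KO and in wild-type cells.

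In the cytosolic sector, which hydrolyses ATP, Atp6v1b2 encodes a B subunit (chr8:69088646-69113711, plus strand). It had 259 and 244 CPM in KO cells with DI, 265 and 286 CPM in untreated KO cells, 476 and 496 CPM in wild-type cells with DI and 309 and 237 CPM in untreated wild-type cells. Wild-type cells with DI were above the 6 others, which overlapped. It rose with DI in wild-type cells, by 0.83 ± 0.22 (edgeR adjusted p = 0.0228), lost without the second wild-type library with DI (edgeR adjusted p = 0.0548) or the second untreated wild-type library (edgeR adjusted p = 0.167). Between DI-treated KO and wild-type cells the log2 fold change was -0.95 ± 0.22 (edgeR adjusted p = 0.01), kept in each fit that left out 1 library. Atp6v1f, the F subunit of the rotor stalk, had 63.7 and 78.9 CPM in KO cells with DI, 106 and 97.4 CPM in untreated KO cells, 122 and 127 CPM in wild-type cells with DI and 96.8 and 90.3 CPM in untreated wild-type cells. The KO libraries with DI were the lowest and the wild-type libraries with DI the highest. The log2 fold change between them was -0.80 ± 0.21 (edgeR adjusted p = 0.021), lost without the first KO or the second wild-type library with DI (edgeR adjusted p = 0.124 and 0.0599). Atp6v1h, a regulatory subunit, had 178 and 113 CPM in KO cells with DI, 82.9 and 84 CPM in untreated KO cells, 176 and 149 CPM in wild-type cells with DI and 83.4 and 92.3 CPM in untreated wild-type cells. Here DI libraries lay above untreated ones in both genotypes. It rose with DI in wild-type cells, by 0.89 ± 0.25 (edgeR adjusted p = 0.0317), lost without any 1 of the 4 untreated libraries or the first wild-type library with DI, with edgeR adjusted p of up to 0.136 without the first untreated wild-type library. In KO cells its change was 0.80 ± 0.25 (edgeR adjusted p = 0.0681), which DESeq2 called (DESeq2 adjusted p = 0.0335).

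In the membrane sector, which carries the protons, the d subunit has 2 isoforms, Atp6v0d1, found in most cells, and Atp6v0d2, known from osteoclasts and some macrophages. Atp6v0d2 had 47.5 and 69.2 CPM in KO cells with DI, 49 and 51.7 CPM in untreated KO cells, 122 and 105 CPM in wild-type cells with DI and 75.8 and 90.4 CPM in untreated wild-type cells. Every KO library was below every wild-type library. Its log2 fold change of KO over wild type with DI was -0.96 ± 0.24 (edgeR adjusted p = 0.0152), lost without the first KO or the first wild-type library with DI (edgeR adjusted p = 0.111 and 0.0643). The summed osteoclast markers given beside Ctsk overlapped between the genotypes with DI, which rested on Tnfrsf11a. Without it the other 9 summed to 141 and 176 CPM in KO cells with DI and 264 and 256 CPM in wild-type cells with DI. Of the 7 tested, 6 lay below 0 for KO over wild type with DI (median -0.65), and Acp5 and Nfatc1 were called lower. Their part in the Atp6v0d2 result was not tested. Atp6v0d1 had 54.1 and 69.6 CPM in KO cells with DI, 62.1 and 81.3 CPM in untreated KO cells, 96.5 and 96.4 CPM in wild-type cells with DI and 67.9 and 54.3 CPM in untreated wild-type cells. The wild-type libraries with DI were the highest, but no comparison was called: its log2 fold change of KO over wild type with DI was -0.64 ± 0.24 (edgeR adjusted p = 0.073) and with DI in wild-type cells 0.66 ± 0.24 (edgeR adjusted p = 0.0791). Atp6v0e, a small subunit, had 159 and 179 CPM in KO cells with DI, 185 and 176 CPM in untreated KO cells, 269 and 268 CPM in wild-type cells with DI and 195 and 188 CPM in untreated wild-type cells. Both wild-type libraries with DI were again the highest. KO over wild type with DI gave a log2 fold change of -0.67 ± 0.20 (edgeR adjusted p = 0.0361), lost without any 1 of the 4 KO libraries or either wild-type library with DI, with edgeR adjusted p of up to 0.158. Atp6ap1, an accessory subunit needed for assembly, had 111 and 105 CPM in KO cells with DI, 127 and 133 CPM in untreated KO cells, 195 and 175 CPM in wild-type cells with DI and 141 and 116 CPM in untreated wild-type cells. Wild-type cells with DI were the highest. Under DI, KO cells differed from wild-type cells by a log2 fold change of -0.77 ± 0.21 (edgeR adjusted p = 0.0236), lost without either KO library with DI or the first wild-type library with DI, with edgeR adjusted p of up to 0.0829.

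A pair of membrane-sector genes was higher in KO than in wild-type cells with DI, and each call depended on single libraries. Atp6v0a1, an a subunit, had 279 and 101 CPM in KO cells with DI, 118 and 118 CPM in untreated KO cells, 92.2 and 69.7 CPM in wild-type cells with DI and 152 and 106 CPM in untreated wild-type cells. A single KO library with DI, at 279 CPM, was above all others. The log2 fold change of KO over wild-type cells with DI was 1.23 ± 0.38 (edgeR adjusted p = 0.0386), and without that library it was 0.32 (edgeR adjusted p = 0.517). The call was also lost without either untreated KO library, either wild-type library with DI or the first untreated wild-type library, with edgeR adjusted p of 0.0505 to 0.186. Atp6v0c, the proteolipid of the rotor ring (chr17:24163866-24169702, minus strand), was counted in few reads, 6 to 83 per library. It had 6.19 and 5.47 CPM in KO cells with DI, 1.05 and 1.95 CPM in untreated KO cells, 1.57 and 2.8 CPM in wild-type cells with DI and 2.8 and 5.37 CPM in untreated wild-type cells. The KO libraries with DI were the highest, although the second untreated wild-type library was close to them. It rose with DI in KO cells, by 1.89 ± 0.48 (edgeR adjusted p = 0.033), and was higher in KO than in wild-type cells with DI, by 1.36 ± 0.45 (edgeR adjusted p = 0.0491). The DI effects differed by 2.76 ± 0.66 (edgeR adjusted p = 0.0269). The rise was lost without any 1 of the 4 KO libraries (edgeR adjusted p up to 0.203), and the genotype difference without any 1 of these or either wild-type library with DI (up to 0.214). The interaction was lost without the first KO library with DI, either untreated KO library, the first wild-type library with DI or the second untreated wild-type library (edgeR adjusted p up to 0.126).

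Atp6v0b, Atp6v0d1, Atp6v1a, Atp6v1c1, Atp6v1d and Atp6v1e1 were called in no comparison by edgeR, with log2 fold changes of KO over wild type under DI from -0.64 to 0.87. DESeq2 called Atp6v1d higher there (DESeq2 adjusted p = 0.0387), as did edgeR with library size alone (edgeR adjusted p = 0.0391). For Atp6v1a, the catalytic subunit, the wild-type libraries with DI read 2501 and 965 CPM, and for Atp6v1e1, a stalk subunit, 164 and 438 CPM. Which of these libraries was the higher differed between the genes, and a group difference could not be told from this spread.

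The promoters of lysosomal genes were searched for the motifs of the factors named above. RefSeq (GRCm38.p6) gave 300 bases around the start, 250 before and 50 after, for 39 of the 47 genes, all but Ctsb, Ctsh, Asah1, Npc1, Atp6v0d2, Atp6v1b2, Atp6v1c1 and Atp6v1h. On either strand, CACGTG was present in 14 of 39 (35.9%), in 12.1% of the 8802 tested genes with a promoter and in 8.09% of 27025 genes in all. It was found in 4 of 8 cathepsins, 4 of 12 other hydrolases, 2 of 9 membrane proteins and 4 of 10 V-ATPase genes. The longer TCACGTGA, which contains it, was present in 7 of 39 (17.9%) and in 2.36% of tested genes (1.12% of all). The CLEAR motif, which adds a G before and a C after these letters, was in 0 of 39 and in 0.875% of tested genes (0.37% of all). The windows of 30 bases with TCACGTGA are shown to compare their flanks, with CACGTG in capitals.
Ctsa, chr2:164833749-164833778, plus strand: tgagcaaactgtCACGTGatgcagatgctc
Ctsd, chr7:142387908-142387937, minus strand: tcgcccgcgtctCACGTGacccgttgaggg
Gla, chrX:134601215-134601244, minus strand: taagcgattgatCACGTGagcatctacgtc
Mcoln1, chr8:3500462-3500491, plus strand: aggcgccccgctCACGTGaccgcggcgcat
Atp6v0d1, chr8:105566050-105566079, minus strand: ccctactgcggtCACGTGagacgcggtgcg
Atp6v0e, chr17:26676387-26676416, plus strand: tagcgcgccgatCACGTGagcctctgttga
Atp6v1a, chr16:44139373-44139402, minus strand: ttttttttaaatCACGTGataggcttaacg
Of these 7 genes Atp6v0e was called lower in KO than in wild-type cells with DI and the other 6 were called in no comparison by edgeR. CACGTG was present in 4 of the 16 matched genes that were lower in KO cells with DI and in 10 of the 23 others.

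The antioxidant response element core TGACNNNGC was found on either strand in 9 of 39 promoters (23.1%), in 17.0% of tested genes and in 14% of all genes. TGANTCA, which can overlap it, was in 6 of 39 (15.4%), in 6.03% of tested genes and in 8.97% of all genes. TGANTCA was present in 3 of the 16 matched genes that were lower in KO cells with DI, Psap, Gpnmb and Cd68. It was also present in 3 of the 23 others, Atp6v0a1, Glb1 and Neu1. The core TGACNNNGC was present in 4 of the 16 matched genes that were lower in KO cells with DI, Psap, shown above, Ctsz, Naglu and Tpp1. It was also present in 5 of the 23 others. These were Atp6v0a1, which was called higher in KO than in wild-type cells with DI, and Ctsd, Hexa, Scarb2 and Atp6v1a, called in no comparison by edgeR. The windows of 30 bases are shown for Ctsz, Naglu and Tpp1 only, with the core in capitals.
Ctsz, chr2:174439153-174439182, minus strand: aatggctggtgGCACTGTCAggtctggggt
Naglu, chr11:101069930-101069959, plus strand: tccagccacgaGCGCGGTCAgcagaccctg
Tpp1, chr7:105752264-105752293, minus strand: gggaggagtcaGCAACGTCActagttacta
In all 3 the match reads on the opposite strand to the gene. A match describes the letters in this window and not binding.

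Further lysosomal genes, taken from lists outside the 47, were examined in the same fit. The list of hydrolases also held other lysosomal proteins, such as Creg1 and Ifi30. Of its 30 tested genes, 2 were higher and 4 lower in KO than in wild-type cells with DI, with a median of -0.32. Of all tested genes 11.4% were higher and 9.74% lower in this comparison. Creg1, a secreted and lysosomal glycoprotein, had 590 and 649 CPM in KO cells with DI, 542 and 583 CPM in untreated KO cells, 6831 and 4973 CPM in wild-type cells with DI and 1539 and 1134 CPM in untreated wild-type cells. It rose in wild-type cells by 2.14 ± 0.25 (edgeR adjusted p = 0.000174), and the DI effects differed by -2.0 ± 0.34 (edgeR adjusted p = 0.00589). Ifi30, a thiol reductase, and Acp5, an acid phosphatase also among the osteoclast markers, were lower in KO cells with DI at -1.56 ± 0.24 (edgeR adjusted p = 0.00108) and -1.33 ± 0.29 (edgeR adjusted p = 0.00797), and Plbd1, a phospholipase B-like protein, was higher at 1.64 ± 0.45 (edgeR adjusted p = 0.0225). In untreated cells Creg1 was lower in KO, at -1.25 ± 0.24 (edgeR adjusted p = 0.0418). With DI, 6 of the 30 fell in KO cells, where 4.0% of all tested genes fell, and the 4 with the smallest p were the sulfamidase Sgsh at -1.64 ± 0.30, the phospholipase Pla2g15 at -1.28 ± 0.24, the iduronate sulfatase Ids at -1.11 ± 0.23 and Ifi30 at -1.13 ± 0.24. In wild-type cells 1 of the 30 rose, Creg1, where 6.51% of all tested genes rose, and among those that fell were the acid phosphatase Acp2 at -0.99 ± 0.22 and Sgsh at -1.05 ± 0.30.

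Of 31 tested membrane and sorting genes, 1 was higher and 7 were lower in KO than in wild-type cells with DI, against the same shares of all genes, with a median of -0.22. Slc11a1, the divalent metal transporter of phagosomes, had 25.9 and 31.7 CPM in KO cells with DI, 39.9 and 35.2 CPM in untreated KO cells, 239 and 238 CPM in wild-type cells with DI and 70.6 and 73.8 CPM in untreated wild-type cells. Between DI-treated KO and wild-type cells the log2 fold change was -3.05 ± 0.23 (edgeR adjusted p = 3.71e-06). It rose with DI in wild-type cells by 1.72 ± 0.22 (edgeR adjusted p = 0.000304), and the DI effects differed by -2.10 ± 0.31 (edgeR adjusted p = 0.00286). The tetraspanin Cd9, the sorting receptor Sort1 and the amino acid transporter Slc36a1 were also lower in KO cells with DI, at -2.08 ± 0.24, -2.94 ± 0.53 and -1.07 ± 0.25. With DI in wild-type cells 3 of the 31 rose, Slc11a1, Cd9 and Slc36a1, where 6.51% of all tested genes rose. The 1 that fell there, by 1.02 ± 0.23, was Gnptg, a subunit of the enzyme that tags hydrolases for sorting. Of all tested genes 8.68% fell. In KO cells the cation channel Tpcn1 and the membrane protein Laptm4a fell with DI, by 1.05 ± 0.27 and 0.85 ± 0.23. Of 12 other V-ATPase genes, 2 were higher and 1 was lower in KO cells with DI: the assembly factor Vma21 at 1.12 ± 0.25, the regulator Dmxl1 at 0.89 ± 0.27 and the subunit Atp6v1g1 at -0.71 ± 0.21. Of 3 tested cysteine protease inhibitors Cstb, which encodes cystatin B, was lower, at -1.33 ± 0.24. Of the 4 MiT/TFE genes, Tfec and Mitf were lower, at -1.96 ± 0.26 and -0.86 ± 0.27, and Tfec rose with DI in wild-type cells by 1.64 ± 0.25 (edgeR adjusted p = 0.000962).

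Features of the libraries moved with some of these results. The oligo-dT primer carried 15 T and can anneal to A-rich stretches inside a transcript. Genes with A-rich stretches in their coding sequence were counted relatively more in KO than in wild-type cells with DI. The part of priming in this trend was not tested. Its removal subtracts the median of all genes of like coding A content, whatever the source of the trend. Among genes with at most 9 A in any 15 coding bases, the median log2 fold change was -0.66 for 23 members and -0.24 for all genes; among those with at least 10 A, it was -0.41 for 24 members and 0.21 for all genes. In each of these sets 10 members were called lower, where 14% of all genes with at most 9 A and 6.63% of those with at least 10 A were called lower. After removal of this trend, 4 members were higher and 13 lower, against 9.0% and 7.86% of all genes, and the members' median was -0.39. The calls of Ctsz, Man2b1, Naglu, Tpp1, Cd68, Atp6ap1, Atp6v0e and Atp6v1f in this comparison were lost, with edgeR adjusted p of 0.0684 to 0.194, as was that of Man2b1 with DI in KO cells (edgeR adjusted p = 0.083). With library size alone in place of scaled sizes, the median of all genes in this comparison was 0.12 in place of 0.01. Then 5 members were higher and 14 lower, beside 14.6% and 7.67% of all tested genes. Among the members' calls 26.3% were higher in place of 13.0%. Of the calls over all genes, 65.6% were then higher in place of 54.0% in this comparison, and 31.6% in place of 42.8% for DI in wild-type cells.

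Where a gene lies can also limit its count. The last 300 bases of Cd63 match its pseudogene Cd63-ps at 98% identity. The ends of Ctsb, Lamp1 and Npc1 overlap those of Fdft1, Grtp1 and Rmc1 on the opposite strand, and 10 members overlap another gene within 500 bases of their end, 9 of them on the opposite strand. The library protocol keeps the strand, but the sources used here do not say whether counting used it, so the values of these genes are uncertain to that extent.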

How the data were processed

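The authors deposited 1 table of raw counts (Ensembl genes by libraries), not normalized. The genome build mm10 and the tools STAR, HTSeq and DESeq2 appear in the submitters' processing notes, with neither versions nor settings. Per the labels' protocols, 3′ libraries were made with a barcoded oligo-dT primer, pooled after first-strand synthesis by Actb level and amplified without molecular identifiers, so repeated reads of a molecule were counted as separate. Counts were matched to GENCODE gene names on GRCm38 for 21745 of 22165 genes, and 6866 genes had no count.

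Genes were filtered with filterByExpr (minimum count 10, by group), scaled by TMM and tested by the robust quasi-likelihood F-test of edgeR 4.0.16 in R 4.3.3, with 1 mean per group over all 8 libraries and Benjamini-Hochberg adjustment over 11079 genes. Groups came from the labels. The alternatives were other scalings, DESeq2 1.42.0, no filter, only the groups compared, removal of the A-rich sequence trend, a replicate block and leaving out each library. On simulated data for DI in wild-type cells, 99% of 4-fold and 36% of 2-fold changes were recovered and 0.11% of unchanged genes were called. Within groups, libraries differed beyond counting error (chi-square over degrees of freedom 15.2 to 45.3).

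The 47 members and the further lists were chosen with earlier results of these data known. Each member called in any comparison, at most 24 by smallest p, was named with its value in every library, as were Atp6v0d1, Atp6v0d2, Ctsk, Ctsl, Ctss and Ctsb. Of lists outside the 47, up to 4 called genes per list and comparison were named; some genes of these lists are not reported here.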

Additional observations from a re-analysis of the deposited data

Results flagged for a closer look

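For 3 of the 47 genes the effect of DI differed between KO and wild-type cells by the interaction test, 1 above and 2 below 0. Of all tested genes 4.96% were called above and 2.59% below 0. The difference (KO minus wild type, log2) was -1.62 for Psap, -1.15 for Gpnmb and 2.76 for Atp6v0c, with edgeR adjusted p of 0.00832, 0.0403 and 0.0269. Psap and Gpnmb rose with DI in wild-type cells and their changes in KO cells did not pass the test, while Atp6v0c rose in KO cells and its change in wild-type cells did not pass the test. Atp6v0c rests on 6 to 83 counts per library. Each of the 3 calls was lost in some fit that left out 1 library, as given above.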

How the results depend on the processing

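All 37 calls among the 47 genes kept their direction under each alternative that was run. DESeq2 size factors and the replicate block ended no call, and DESeq2 ended 1, omitting the filter 1, library size alone 6, removal of the A-rich sequence trend 9 and fitting only the groups compared 19 of 34. For KO over wild type with DI, 3 higher and 20 lower members became 5 higher with library size alone, beside 14.6% of all tested genes. The lower members became 13 with the trend removed. With only the groups compared 1 member was higher and 7 lower, where 7.74% of all tested genes were higher and 6.53% lower. Under DI in wild-type cells 3 members rose with only the groups compared, in place of 6, where 5.53% of all tested genes rose in place of 6.51%. DESeq2 called 2 members higher and 4 lower with DI in KO cells, where it called 6.39% of all tested genes higher and 4.97% lower. For the interaction it called 2 members above and 6 below 0, beside 6.92% and 3.76% of all genes. Between untreated genotypes it called 2 members lower, beside 1.40% of all genes. Without the filter 2 members were called higher with DI in KO cells, beside 6.73% of all genes. For the interaction 5 members were called above and 5 below 0 without it, beside 7.23% and 3.21% of all genes. Between untreated genotypes 2 members were called lower, beside 2.12% of all genes. The fits that each left out 1 library called 4 to 18 members lower and 1 to 4 higher for KO over wild type with DI, 1 to 6 higher and 2 to 3 lower with DI in wild-type cells, 0 to 2 higher and 0 to 4 lower with DI in KO cells, 0 to 2 above and 0 to 4 below 0 for the interaction, and 0 in either direction between untreated genotypes. Of the 37 calls, 7 remained in every such fit, those of Ctsc and Ppt1 with DI in wild-type cells and of Ctsc, Lipa, Psap, Gpnmb and Atp6v1b2 for KO over wild type with DI. Each fit without 1 library leaves a single library in a group. For KO over wild type with DI, each of these fits also called a smaller share of all tested genes than the main fit. The members' median log2 fold change in that comparison stayed between -0.61 and -0.52. In the other comparisons some of these fits called a smaller share of all tested genes and some a larger one. The cause of these shifts was not tested.

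The replicate numbers gave no sign of pairing, since deviations of same-numbered libraries correlated between -0.08 and 0.156 across group pairs. With the replicate block in the fit, each of the 37 calls among the members was kept. With 2 libraries per group, 36% of simulated 2-fold changes were recovered for DI in wild-type cells, so a gene that was not called is not shown to be unchanged.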
